A study of Mus musculus with 74 samples.

Results

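Cd5, Cd6 and Cd69 encode surface receptors of T cells whose amount follows the strength of the T cell receptor signal. They were picked by name: every probe whose platform gene symbol was Cd5, Cd6 or Cd69 was taken, which gave 3 probes, 1 for each gene (M200000274 for Cd5, M200007494 for Cd6 and M200015388 for Cd69), out of 13409 genes on the array. The 74 mouse arrays each carried 2 RNA samples, and each value is the log ratio of the test RNA over its partner, so a change is measured and the amount of RNA is not.

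The hybridoma part held 50 arrays of DO11.10, a T cell hybridoma line, with untreated DO11.10 cells as the partner on every array. The cells carried the empty retrovirus MSCV in a pair of sets (empty virus A, 12 arrays, and empty virus B, 4 arrays), HDAC7-VP16 (10 arrays), MEF2D-VP16 (4 arrays) or Nur77 (4 arrays). In another pair of groups, cells with the empty virus or with a construct labelled HDAC7 DP were treated with PMA and ionomycin for 2.5 h (8 arrays each). HDAC7 is a class IIa histone deacetylase, MEF2D a transcription factor that binds it, VP16 a viral activation domain and Nur77 an orphan nuclear receptor. PMA and ionomycin are drugs that switch on protein kinase C and calcium signalling without the receptor. The thymocyte part held 24 arrays of total thymocytes, 6 in each group. In one group the test RNA came from mice transgenic for the DO11.10 T cell receptor and the partner RNA from mhc -/- mice. In the others the test RNA came from such transgenic mice injected with antigenic peptide 3 h, 6 h or 12 h earlier, and the partner RNA from uninjected ones. What DP stands for, the strain and age of the mice, the deleted MHC loci and the promoter of the transgene are unstated in the sources used here. The hybridoma is 1 line, and total thymocytes are a mixture of cells at every stage of development.

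CD5 and CD6 are neighbouring scavenger receptor cysteine-rich proteins that sit beside the T cell receptor and are phosphorylated when it is engaged. CD5 dampens receptor signalling, and its surface level on thymocytes is set during selection by how strongly the receptor binds self peptide on MHC. CD6 binds the adhesion molecule ALCAM and acts as a docking site for signalling adaptors. CD69 is a C-type lectin that appears within hours of receptor engagement, binds the sphingosine phosphate receptor S1PR1 and holds cells in the tissue. In the thymus, cells that have received a positive selection signal are commonly recognised by CD69 and high CD5.

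The direction of each ratio is not stated in the sources used here. For Nur77, the stimulated groups and the thymocyte groups it was taken as likely from genes other than the 3 receptors. In the stimulated groups these were Nr4a1, Egr1, Egr2 and Il2, and after peptide Nr4a1, Egr1 and Egr2, each taken as higher. No such gene was set for HDAC7-VP16, MEF2D-VP16 or the empty virus sets, whose direction was assumed. Nr4a1, the gene of Nur77, was higher on 4 of 4 Nur77 arrays (mean log2 ratio 4.5, SD 1.21). B2m, the light chain of MHC class I (3.26, SD 0.27), and the MHC class II genes H2-Ab1 (2.42, SD 0.35) and H2-Aa (1.96, SD 0.86) were higher in DO11.10 than in mhc -/- thymocytes on all 6 arrays, while H2-D1 was near 0 (0.11, SD 0.24). H2-K1, also set as a check, had no value. Of the further checks there, Ccr7, Klf2 and Itgb7 were above 0 on 6 of 6 arrays. S1pr1, set in the same group of checks, went the other way, below 0 on 6 of 6 (-0.89, SD 0.17). Arrays of opposite dye orientation correlated over all probes with a median above 0 in 8 of 11 groups and below 0 in empty virus A (-0.40), HDAC7-VP16 (-0.48) and empty virus B (-0.24). Replicates 3 and 9 of empty virus A correlated negatively with arrays of their own orientation (down to -0.58), so their direction is unsettled and values with their sign turned are given where they matter. Test and partner RNA were labelled with Cy5 and Cy3 equally often in each group. The labels do not say whether arrays of a group hold RNA of separate cultures or animals, so the p-values describe spread among arrays that may be purely technical.

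Cd5 was called in 5 of the 9 comparisons of a construct, stimulus, mouse genotype or peptide described below. Its promoter is shown because it is the only promoter of the 3 receptors in the RefSeq table used. The window (GRCm38.p6, chr19:10738925-10739224, minus strand) runs from 250 bases before the start site to 50 after it. Capitals mark the matches to the E-box motif CANNTG, the site of E proteins, at -174 and -69 from the start site.

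Cd5: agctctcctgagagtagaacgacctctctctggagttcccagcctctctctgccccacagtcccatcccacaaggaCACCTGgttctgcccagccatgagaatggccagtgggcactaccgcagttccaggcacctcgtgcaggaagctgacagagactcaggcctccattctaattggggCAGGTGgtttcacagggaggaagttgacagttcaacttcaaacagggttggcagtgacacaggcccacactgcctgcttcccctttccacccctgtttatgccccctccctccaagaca

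Both strands were searched, and an E-box lay in 72.31% of 32851 promoter windows of this length. The letters of the Nur77 element (AAAGGTCA, in 1.51% of windows), the EGR element (GCGNGGGCG, 5.55%), the AP-1 element (TGANTCA, 7.81%) and the MEF2 element (3.19%) were not in the Cd5 window. The NFAT core GGAAA, present in 61.34% of windows, matched once on the opposite strand, 15 bases after the start site. These matches are letters in a window and were not tested as binding sites.

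Cd5 and Cd6 rose with HDAC7-VP16, and Cd69 was not called. In cells with HDAC7-VP16 the Cd5 log2 ratio over untreated cells ran from 0.77 through a median of 2.11 to 2.39 over 10 arrays, against -0.30, -0.10 and 0.08 over the 12 arrays of empty virus A. No array of either group reached the range of the other. How often groups parted in this way over all probes was not counted, here or in the comparisons below. Cd5 was 3.97-fold higher than with empty virus A (log2 difference 1.99, SE 0.17, limma adjusted p = 1.86e-07).

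Cd6 ran from 0.68 through 2.47 to 4.48 with HDAC7-VP16 and from -1.15 through -0.38 to 0.10 with empty virus A, again without overlap. The difference was 6.83-fold (2.77, SE 0.30, limma adjusted p = 5.46e-06). Cd69 ran from -0.70 through -0.13 to 0.48 with HDAC7-VP16 and from -0.76 through -0.35 to 0.39 with empty virus A. These ranges overlapped almost entirely, and the difference of 0.13 (95% confidence interval -0.13 to 0.38, limma adjusted p = 0.781) was not called at an adjusted p under 0.05. So 2 of the 3 receptors were called where 2.72% of all 16463 probes were. With the sign of the unsettled empty virus arrays turned, the differences were 1.95 for Cd5, 2.69 for Cd6 and 0.14 for Cd69.

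The HDAC7-VP16 arrays did not form a single level. Slides 14-11 and 14-12, which carried opposite dye orientations, gave Cd5 ratios of 0.77 and 0.82, while the other 8 arrays lay between 1.99 and 2.39. The same slides gave the lowest Cd6 ratios, 0.68 and 1.09, against 1.29 to 4.48 on the other 8. Their means were also lower for Nr4a1 (1.80 against 2.79 on the other 8) and Cd28 (3.19 against 4.02). So were those for Irf4 (1.10 against 2.295) and Pdcd1 (0.61 against 1.78). The Cd69 mean was not lower (0.13 against -0.19). Without these slides the differences from empty virus A were 2.26 for Cd5 and 3.16 for Cd6. The slides fall in 2 series, named 14 and 15. In series 15 alone the differences were 2.30 (limma adjusted p = 2.58e-08) and 2.86 (1.47e-06), and in series 14 alone, which holds the low slides, they were 1.55 (0.266) and 2.60 (0.393), where 7 probes in all were called. The source name of replicate 1 names the empty virus and its title HDAC7-VP16; its Cd5 ratio was 1.99 and its Cd6 ratio 3.19, and without it the differences were 1.97 and 2.73.

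**Figure D1:**
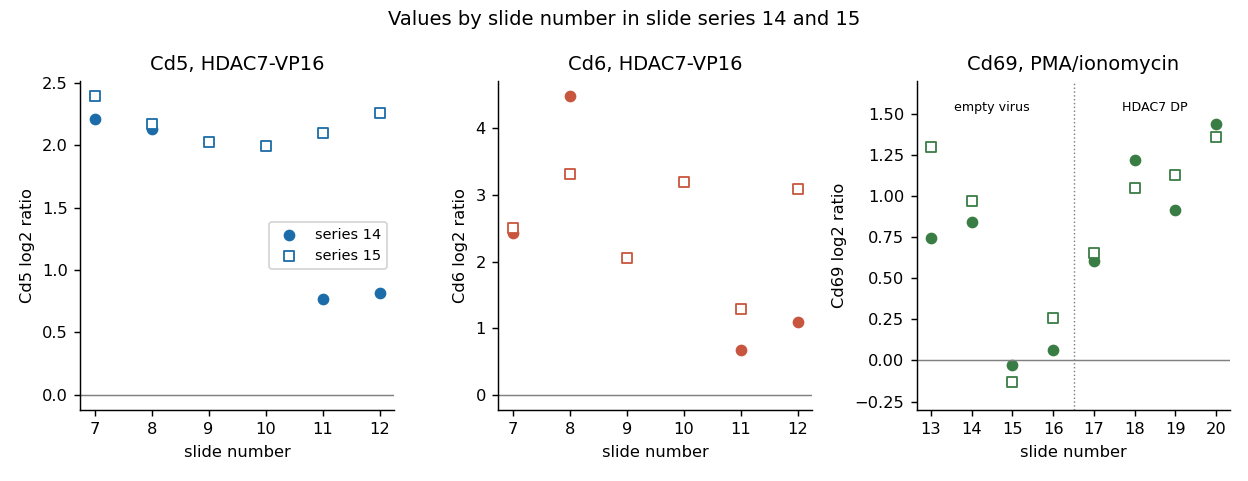
Log2 ratio over untreated cells (vertical axis) by slide number (horizontal axis), with filled circles for slide series 14 and open squares for series 15; the left and middle plots show Cd5 and Cd6 with HDAC7-VP16, the right plot Cd69 in stimulated cells. Slides 11 and 12 of series 14 sit at 0.77 and 0.82 for Cd5, below the other 8 arrays, and stimulated empty virus slides 15 and 16 sit between -0.13 and 0.26 for Cd69 in both series.

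Cd6 rose with both MEF2D-VP16 and Nur77, Cd5 rose with Nur77, and Cd69 fell with Nur77. Cd6 ratios were 2.33, 2.02, 1.58 and 2.26 on the MEF2D-VP16 arrays, 2.22, 2.15, 2.26 and 1.67 on the Nur77 arrays and 0.07, 0.29, 0.22 and 0.09 on the arrays of empty virus B. All 8 construct arrays lay above all 4 control arrays. Cd6 was 3.67-fold higher than empty virus B with MEF2D-VP16 (1.88, SE 0.17, limma adjusted p = 0.00017) and 3.75-fold higher with Nur77 (1.91, SE 0.14, limma adjusted p = 1.86e-05). These comparisons share the control arrays. The direct difference of MEF2D-VP16 from Nur77 was -0.03 for Cd6 (95% confidence interval -0.48 to 0.42), which was not called.

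For Cd5 the 4 Nur77 arrays gave 1.59, 1.15, 1.32 and 0.58, the 4 MEF2D-VP16 arrays 0.74, 0.43, 0.23 and 0.26, and the 4 empty virus B arrays 0.06, -0.34, -0.14 and 0.03. Both constructs lay above the control on every array, and their ranges overlapped each other by 1 Nur77 array. Cd5 rose 2.39-fold with Nur77 (1.26, SE 0.19, limma adjusted p = 0.00276). With MEF2D-VP16 it was 0.51 higher (SE 0.16, limma adjusted p = 0.0628), which was not called. It was called against all 16 empty virus arrays (0.52, adjusted p = 0.000623), with arrays scaled to equal spread (0.46, adjusted p = 0.0457) and in the ratio over untreated cells itself (0.41, adjusted p = 0.0375). MEF2D-VP16 lay below Nur77 by -0.75 (SE 0.20, limma adjusted p = 0.0371), 1 of 3 receptors called where 13% of probes were. That call was lost without any 1 of 7 of the 8 arrays, every array but Nur77 replicate 4.

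Cd69 was -0.998, -1.11, -0.04 and -0.41 with Nur77, -0.72, -0.22, -0.09 and -0.07 with MEF2D-VP16 and -0.07, -0.06, 0.38 and 0.42 with empty virus B. Cd69 fell 1.75-fold with Nur77 (-0.81, SE 0.13, limma adjusted p = 0.00311), and 1 Nur77 array reached the control range. The ratio moved with the dye: Nur77 arrays averaged -1.05 with the test RNA in Cy5 and -0.23 in Cy3, and empty virus B arrays -0.07 and 0.40. Without a dye column the call was lost (adjusted p = 0.204), and so it was against all 16 empty virus arrays (-0.49, adjusted p = 0.131). With MEF2D-VP16 Cd69 differed by -0.44 (SE 0.15, limma adjusted p = 0.0926), which was not called except without replicate 3 (-0.59, adjusted p = 0.016). Of the 3 receptors 1 was called with MEF2D-VP16, where 12.6% of probes were, and 3 with Nur77, where 6.91% were.

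The empty virus itself gave ratios near 0. Against untreated cells empty virus B left all 3 uncalled (-0.10, 0.17 and 0.17 for Cd5, Cd6 and Cd69, with unadjusted limma p = 0.315, 0.0677 and 0.0526), where 5.72% of probes were called. Empty virus A gave -0.10 for Cd5, -0.26 for Cd69 and -0.36 for Cd6 (SE 0.08, limma adjusted p = 0.0466; 1.97% of probes called). The Cd6 call was lost with the unsettled arrays turned (-0.28, adjusted p = 0.485) and in 6 other settings. The Cd69 ratio with HDAC7-VP16 also differed between dyes, with a mean of -0.45 in Cy5 and 0.20 in Cy3. So did Cd6, with a mean of 1.79 in Cy5 and 3.03 in Cy3, while Cd5 had 1.90 and 1.87. Cd5 and Cd6 stayed above 0 on all 10 arrays in both orientations.

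**Figure D2:**
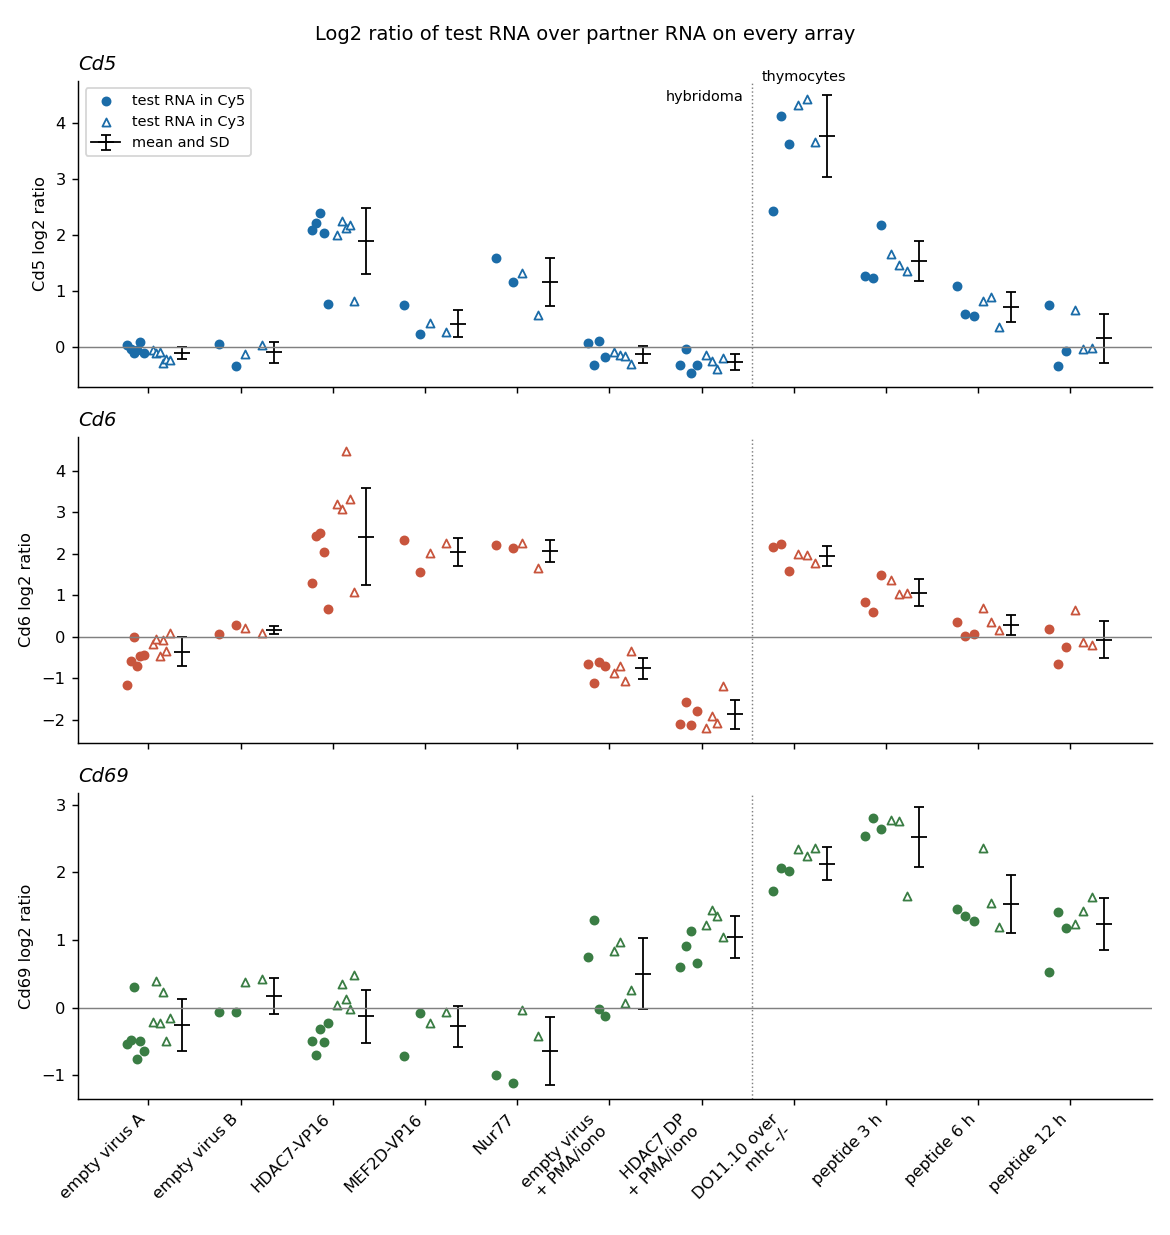
Log2 ratio of test over partner RNA (vertical axis) for Cd5, Cd6 and Cd69 on each of 74 arrays in 11 groups (horizontal axis); filled circles have the test RNA in Cy5, open triangles in Cy3, and the black marks give the mean and SD of a group. Cd6 lies above 0 with HDAC7-VP16, MEF2D-VP16 and Nur77 and below 0 in both stimulated groups, while Cd69 lies above 0 on all 24 thymocyte arrays.

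With PMA and ionomycin Cd69 rose, and neither Cd5 nor Cd6 was called. Cd69 in stimulated empty virus cells ran from -0.13 through 0.50 to 1.298 over 8 arrays, against -0.76, -0.35 and 0.39 in empty virus A. The groups overlapped, and Cd69 was 1.69-fold higher (0.76, SE 0.19, limma adjusted p = 0.0103; 1 of 3 receptors called where 12.5% of probes were). The values split by slide number: slides 13 and 14 had a mean of 0.96 (SD 0.24, n = 4) and slides 15 and 16 of 0.04 (SD 0.17, n = 4), alike in both slide series. The call was also lost within slide series 14 (0.69, adjusted p = 0.159) or 15 (0.83, adjusted p = 0.15), and in the ratio over untreated cells (0.50, adjusted p = 0.0867). Whether slides with the same number in both series carry the same RNA is unstated, and with such slides averaged it was not called (0.76, adjusted p = 0.0706). With slides 13 and 14 alone Cd69 was 1.22 higher (adjusted p = 0.000628), and with slides 15 and 16 alone 0.30 higher (adjusted p = 0.297). The labels do not say what sets these slide numbers apart.

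Cd5 in stimulated empty virus cells ran from -0.33 through -0.16 to 0.10, inside or beside the control range, with a difference of -0.03 (95% confidence interval -0.16 to 0.10). With HDAC7-VP16, against the same control arrays, the interval for Cd5 was 1.64 to 2.34. Cd6 ran from -1.12 through -0.71 to -0.33 and was below untreated cells on 8 of 8 arrays. Against empty virus A it differed by -0.40 (SE 0.13, limma adjusted p = 0.0542), which was not called. Set against all 16 arrays of both empty virus sets it was called lower (-0.53, adjusted p = 0.0138), as it was with the unsettled arrays turned (-0.48, adjusted p = 0.0321) and in the ratio over untreated cells (-0.76, adjusted p = 0.000949).

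In stimulated cells Cd6 fell with HDAC7 DP. No HDAC7 DP cells without the stimulus were measured, so a lower starting level and a changed response cannot be told apart. Cd6 ran from -2.20 through -1.98 to -1.17, below every stimulated empty virus array. It fell 2.15-fold relative to these (-1.11, SE 0.15, limma adjusted p = 0.000564), where 1.65% of probes were called and 1 of 3 receptors. The difference was -1.14 within slide series 14 (adjusted p = 0.0214) and -1.07 within series 15 (adjusted p = 0.228, with 27 probes called in all). Cd5 ran from -0.47 through -0.29 to -0.03 and differed by -0.14 (95% confidence interval -0.31 to 0.04). Cd69 ran from 0.60 through 1.09 to 1.44 and was 0.54 higher (SE 0.20, limma adjusted p = 0.236), not called. Against the stimulated empty virus on slides 15 and 16 alone Cd69 was 1.00 higher (adjusted p = 0.000372), and against slides 13 and 14 alone 0.08 higher (adjusted p = 0.875). The direct difference of HDAC7-VP16 from stimulated empty virus cells was 2.02 for Cd5, 3.17 for Cd6 and -0.63 for Cd69 (limma adjusted p = 4.75e-06, 1.7e-05 and 0.0421), with 3 of 3 receptors called where 8.82% of probes were. The Cd69 call was lost in 6 of the alternative settings, with -0.17 against slides 15 and 16 alone.

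**Figure D3:**
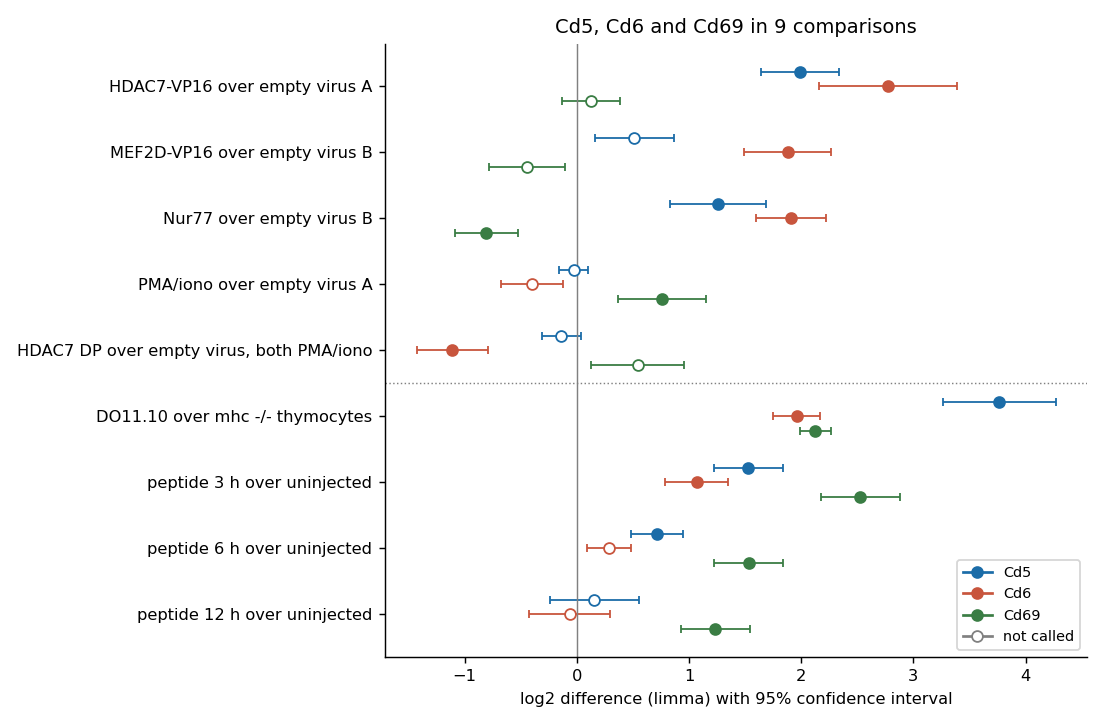
Log2 difference with its 95% confidence interval from limma (horizontal axis) for Cd5, Cd6 and Cd69 in 9 comparisons (vertical axis), filled where called and open where not; the dotted line separates hybridoma from thymocytes. Cd69 lies at 0.13, -0.44 and -0.81 with HDAC7-VP16, MEF2D-VP16 and Nur77, while all 4 thymocyte values of Cd69 lie between 1.23 and 2.53.

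All 3 receptors were higher in DO11.10 than in mhc -/- thymocytes. The labels name the receptor transgene only for the DO11.10 mice, so effects of MHC and of the transgene cannot be told apart. Cd5 ran from 2.42 through 3.89 to 4.43 over 6 arrays and was 13.6-fold higher (3.77, SE 0.21, limma adjusted p = 1.18e-05). Cd6 ran from 1.58 through 1.99 to 2.24 and was 3.89-fold higher (1.96, SE 0.09, limma adjusted p = 4.82e-06). Cd69 ran from 1.73 through 2.15 to 2.36 and was 4.37-fold higher (2.13, SE 0.06, limma adjusted p = 1.11e-06). Every array was above 0 for each receptor, in a comparison where 36.3% of all probes were called. The lowest Cd5 array, replicate 3, was also the lowest for Cd69 (1.73) but not low for Cd6 (2.16), and without it Cd5 was 4.01 higher.

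In these total thymocytes, fewer cells of a type and less RNA per cell cannot be told apart. Genes of other stages moved in the same comparison. Of 9 double-positive stage genes 4 fell, among them the pre-receptor gene Ptcra (-1.33) and the recombinase gene Rag2 (-1.14), and Bcl6 rose (3.28); the median of the list was -0.16 against -0.01 over all probes. Markers of other cells moved both ways: 3 of 5 granulocyte markers fell (S100a8 by 1.05), none of 5 macrophage and dendritic cell markers was called, 3 of 5 B cell markers rose and Cd79b fell (-1.08), 3 of 7 thymic epithelium markers rose and 2 fell, 2 of 5 natural killer cell markers rose (Gzma by 2.02) and 2 fell, and of 2 erythroid markers Alas2 rose (2.04) and Car1 fell (-0.19). Their ratios ran from -1.19 to 2.04, levels of the markers are not measured by ratios, and their part in the receptor changes was not tested.

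After peptide all 3 receptors rose at 3 h, Cd5 and Cd69 were called at 6 h, and Cd69 alone was called at 12 h. At 3 h Cd69 ran from 1.65 through 2.70 to 2.80 and was 5.76-fold higher than in uninjected thymocytes (2.53, SE 0.15, limma adjusted p = 0.000389). Cd5 ran from 1.23 through 1.41 to 2.18 (2.88-fold, 1.53, SE 0.13, limma adjusted p = 0.00216). Cd6 ran from 0.60 through 1.05 to 1.496 (2.1-fold, 1.07, SE 0.12, limma adjusted p = 0.00691). No array of any receptor was below 0, and 2.71% of probes were called.

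At 6 h Cd69 ran from 1.197 through 1.41 to 2.36 (2.89-fold, 1.53, SE 0.13, limma adjusted p = 0.000773) and Cd5 from 0.35 through 0.70 to 1.09 (1.64-fold, 0.71, SE 0.10, limma adjusted p = 0.00767). Cd6 was above 0 on 6 of 6 arrays, from 0.03 to 0.71, but its mean of 0.28 (SE 0.08, limma adjusted p = 0.115) was not called. So 2 of 3 receptors were called where 4.57% of probes were. At 12 h Cd69 still ran from 0.52 through 1.33 to 1.63 (2.35-fold, 1.23, SE 0.13, limma adjusted p = 0.0094; 3.38% of probes called). Its call was lost without replicate 4, 5 or 6 (adjusted p = 0.0549, 0.0688 and 0.0626), with values of 1.199, 1.23 and 1.18. Cd5 ran from -0.34 through -0.03 to 0.74 at 12 h (mean 0.16, limma adjusted p = 0.652) and Cd6 from -0.65 through -0.16 to 0.64 (-0.06, limma adjusted p = 0.862), on both sides of 0.

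The 3 times differed for each receptor in a moderated F test (limma adjusted p = 0.00297 for Cd5, 0.00399 for Cd6 and 0.00688 for Cd69; 4.09% of probes called). From 3 h to 12 h Cd5 fell by 1.37 (SE 0.20, limma adjusted p = 0.000997), Cd6 by 1.13 (SE 0.18, limma adjusted p = 0.00166) and Cd69 by 1.29 (SE 0.22, limma adjusted p = 0.00334), where 4.87% of probes were called. No receptor was called between 3 h and 6 h, where 0.0121% of probes were (-0.81, -0.78 and -0.99 for Cd5, Cd6 and Cd69, unadjusted limma p = 0.00076, 0.00036 and 0.000334). Between 6 h and 12 h, where 3.18% were called, the values were -0.56, -0.35 and -0.30 (unadjusted limma p = 0.0123, 0.0666 and 0.201). Slide names divide the arrays: all 3 h arrays and 2 arrays at each later time have names with 13-, and each of those 4 later arrays shares its name with a 3 h array. At 12 h the 13- arrays averaged 0.70 for Cd5, 0.41 for Cd6 and 0.88 for Cd69, and the other 4 averaged -0.12, -0.30 and 1.41. Within the 10 arrays with 13- names the change from 3 h to 12 h was -0.83 for Cd5 (adjusted p = 0.142) and -0.66 for Cd6 (adjusted p = 0.223), neither called.

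**Figure D4:**
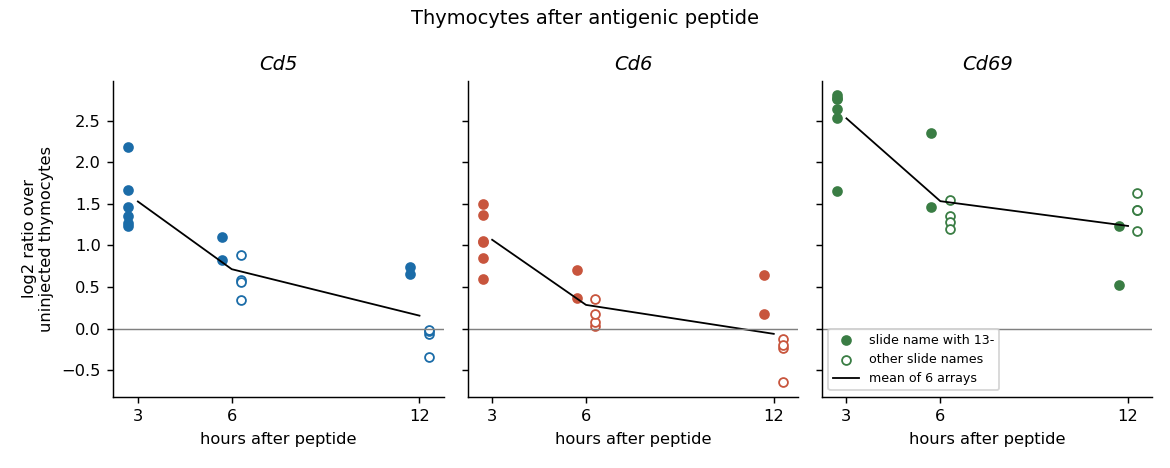
Log2 ratio over uninjected thymocytes (vertical axis) against hours after peptide (horizontal axis) for Cd5, Cd6 and Cd69, 6 arrays at each time; filled points have slide names with 13-, open points other names, and the line joins the means. Cd5 and Cd6 come down to a mean of 0.16 and -0.06 at 12 h, and Cd69 stays at 1.23, with the 13- arrays above the others at 12 h for Cd5 and Cd6.

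Markers of other cells also moved with peptide, at times where 2.71%, 4.57% and 3.38% of all probes were called. Of 7 thymic epithelium markers 2 fell at 3 h, 3 at 6 h and 1 at 12 h; the cortical proteasome gene Psmb11 fell by 1.16, 1.73 and 1.97. Alas2 fell at 3 h (-1.32) and 6 h (-0.81). Of 5 macrophage and dendritic cell markers 0, 2 and 0 were called, all lower, of 5 B cell markers 0, 1 and 0, also lower, and of 5 natural killer cell markers Klrd1 fell at 6 h (-0.29) and Nkg7 rose at 12 h (0.38). No granulocyte marker of 5 was called. Of 8 T cell markers Thy1 fell at 6 h (-0.60) and 12 h (-0.75). The part of these changes in the receptor values was not tested.

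The contrast between hybridoma and thymocytes was tested in 1 fit over all 74 arrays. Each hybridoma effect, taken against its empty virus, was set against the mean peptide effect over the 3 times. The peptide effect differed between times for each receptor and was highest at 3 h. The distances below therefore hold for the mean and not for any one time. For Cd69 HDAC7-VP16 lay -1.64 from the peptide mean, MEF2D-VP16 -2.21 and Nur77 -2.57 (limma adjusted p = 1.21e-11, 4.37e-10 and 1.95e-12), and the stimulus lay -1.0 from it (1.28e-05). For Cd6 the 3 constructs lay above the peptide mean, by 2.34, 1.45 and 1.48 (limma adjusted p = 2.03e-11, 0.00383 and 0.00598), and the stimulus below it, by -0.83 (0.0152). For Cd5 HDAC7-VP16 lay 1.19 above it (1.69e-06) and the stimulus -0.83 from it (0.000961). MEF2D-VP16 (-0.29, 95% confidence interval -0.85 to 0.27) and Nur77 (0.46, -0.10 to 1.02) were not told apart from the peptide mean for Cd5. The share of all probes called was 9.94%, 12.6%, 5.2% and 17.9% for HDAC7-VP16, MEF2D-VP16, Nur77 and the stimulus. These contrasts share the peptide arrays, and those of MEF2D-VP16 and Nur77 share empty virus B.

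Set against the DO11.10 over mhc -/- ratio, all 4 hybridoma effects were lower for Cd5 (differences of -1.78 for HDAC7-VP16, -3.25 for MEF2D-VP16, -2.51 for Nur77 and -3.79 for the stimulus) and for Cd69 (-2.0, -2.57, -2.93 and -1.37), each with a limma adjusted p of 2.53e-07 or less. For Cd6 the constructs were close to the thymocyte ratio: MEF2D-VP16 differed by -0.08 (95% confidence interval -0.89 to 0.73) and Nur77 by -0.05 (-0.86 to 0.76), neither called. HDAC7-VP16 was 0.81 higher (limma adjusted p = 0.0401), a call lost with arrays scaled to equal spread (0.41, adjusted p = 0.454), and the stimulus was -2.36 from it (limma adjusted p = 3.11e-09). The share of all probes called in these contrasts was 19.2%, 19.6%, 17.3% and 22.3%.

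**Figure D5:**
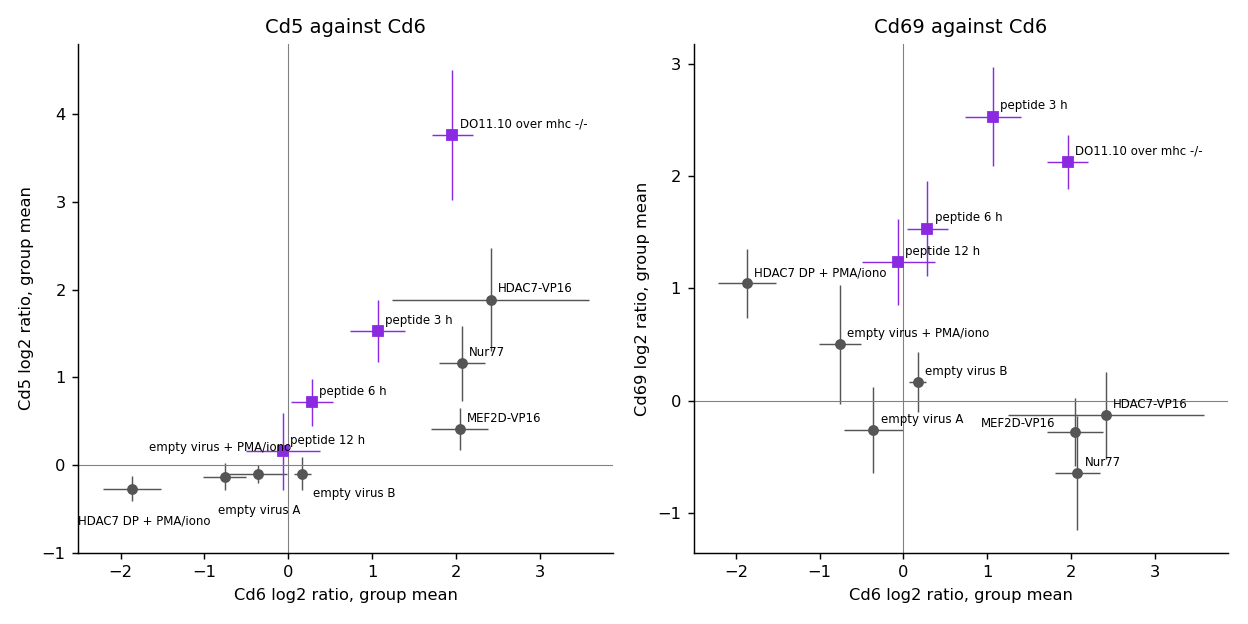
Group means with SD of the Cd5 (left) and Cd69 (right) log2 ratio (vertical axes) against Cd6 (horizontal axis) for 7 hybridoma groups (grey circles) and 4 thymocyte groups (purple squares). The groups with the 3 constructs have Cd6 means above 2 and Cd69 means below 0, and the thymocyte groups have Cd69 means from 1.23 to 2.53.

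Whether the log2 ratios of the receptors differed within an array was tested by exact two-sided sign-flip permutation in 33 tests. Only tests with HDAC7-VP16 or in the stimulated groups gave an adjusted p under 0.05. With HDAC7-VP16 Cd69 lay below Cd6 on 10 of 10 arrays (mean difference of log2 ratios -2.54, SD 1.14, adjusted p = 0.0322) and below Cd5 on 10 of 10 (-2.01, SD 0.80, adjusted p = 0.0322). The Cd6 ratio exceeded the Cd5 ratio by 0.53 on average, on 8 of 10 arrays, which did not pass (adjusted p = 0.114). In stimulated cells Cd69 lay above Cd6 on 8 of 8 arrays with the empty virus (1.26, SD 0.67, adjusted p = 0.0368) and with HDAC7 DP (2.91, SD 0.50, adjusted p = 0.0368), and Cd6 lay below Cd5 on 8 of 8 in each (-0.62 and -1.60, adjusted p = 0.0368 for both).

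In all 4 thymocyte groups the Cd6 ratio was below the Cd5 ratio on 6 of 6 arrays, by -1.81 for DO11.10 over mhc -/- and by -0.46, -0.43 and -0.22 at 3 h, 6 h and 12 h. With MEF2D-VP16 and Nur77 it was above Cd5 on 4 of 4 arrays, by 1.63 and 0.91. In the thymocyte comparison Cd69 was below Cd5 by -1.64, and after peptide it was above Cd5 by 1.00, 0.82 and 1.08. The smallest p an exact test can give is 0.031 with 6 arrays and 0.12 with 4, so none of these passed the adjustment (adjusted p = 0.0573 where all 6 arrays had the same sign).

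Ordered by mean log2 ratio over the 11 groups, Cd5 ran from DO11.10 over mhc -/- (3.77, SD 0.74) through HDAC7-VP16 (1.89, SD 0.59), peptide 3 h (1.53, SD 0.36), Nur77 (1.16, SD 0.43), peptide 6 h (0.71, SD 0.27), MEF2D-VP16 (0.41, SD 0.24) and peptide 12 h (0.16, SD 0.44) to the empty virus and stimulated groups, which lay between -0.27 and -0.10. Only the first of these did not overlap its neighbour in the order. Cd6 was led by HDAC7-VP16 (2.41, SD 1.17), Nur77 (2.07, SD 0.27), MEF2D-VP16 (2.05, SD 0.34) and DO11.10 over mhc -/- (1.96, SD 0.24), which overlapped in turn. A gap followed before peptide 3 h (1.07, SD 0.33), and another parted the stimulated empty virus (-0.76, SD 0.25) from HDAC7 DP at the bottom (-1.87, SD 0.35). Cd69 was led by peptide 3 h (2.53, SD 0.44) and DO11.10 over mhc -/- (2.13, SD 0.24) and ended with Nur77 (-0.64, SD 0.50), with every neighbour overlapping.

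Likeness of pattern was measured as Pearson's r over the 74 arrays, which share groups and partner RNA, and is given as a description. Cd5 and Cd6 had r = 0.744, Cd5 and Cd69 0.337, and Cd6 and Cd69 -0.064. Closest to Cd5 were Cd2, an adhesion receptor of T cells (0.836), Etv5 (0.827), Rftn1 (0.818), Scamp4 (0.811) and Pglyrp2 (0.807). All of these were high in DO11.10 over mhc -/-, with means from 1.35 to 3.23. They did not share the other rises of Cd5. With Nur77, where Cd5 had a mean of 1.16, they lay between -0.92 and 0.21. At peptide 3 h, where Cd5 had 1.53, they lay between -0.07 and 0.38. Closest to Cd6 were 2510009E07Rik (0.825), Cd96 (0.823), Galc (0.817), Gpr65 (0.79) and Edaradd (0.783). Cd96, a receptor of T and natural killer cells, had group means of 1.18 with HDAC7-VP16, 1.16 with MEF2D-VP16 and 2.25 with Nur77, and lay between -0.18 and 0.02 after peptide. With these constructs 2510009E07Rik was high too (1.825, 2.84 and 1.88), while Galc was lower (0.47, 0.21 and 0.45). Gpr65 lay at -0.72 with MEF2D-VP16 and Edaradd at 0.10 with Nur77. Closest to Cd69 were Cd83 (0.75), an activation marker, Cd200 (0.726), the AP-1 family gene Batf (0.714), Il4i1 (0.668) and Gbp2b (0.666), all with means above 0 at each peptide time.

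Cd5 and Cd6 are next to each other on chromosome 19 in the RefSeq gene order, so genes around them were read too. Pga5, 2 genes beyond Cd5, was not called in any of the 11 comparisons against a control or partner, with values from -0.12 to 0.10 and adjusted p of 0.137 or more, and Tmem132a, 2 genes beyond Cd6, was called only in DO11.10 over mhc -/- (0.31, limma adjusted p = 0.00701). Clec2d, a C-type lectin gene next to Cd69 on chromosome 6, rose in DO11.10 over mhc -/- (2.00), with Nur77 (1.08), at 6 h after peptide (0.73) and with the stimulus (0.38). With Nur77 it rose where Cd69 fell. Clec12b, 3 genes beyond Cd69 on the other side, was not called in any of the 11, with values from -0.12 to 0.13 and adjusted p of 0.497 or more.

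Other genes of the pathways are given by lists, as counts of called members and medians. Each count stands against the share of all probes called in its comparison, which was 2.72% with HDAC7-VP16, 12.6% with MEF2D-VP16, 6.91% with Nur77, 12.5% with the stimulus, 1.65% with HDAC7 DP, 36.3% in DO11.10 over mhc -/- and 2.71%, 4.57% and 3.38% at the peptide times. Of 20 measured genes that receptor signalling induces in selection, 5 rose and 1 fell with HDAC7-VP16 (median 0.13, against -0.01 to 0.01 over all probes in each comparison), led by Cd28 (3.68), Nr4a1 (3.28) and Irf4 (2.03). With MEF2D-VP16 8 were called, all higher (median 0.21), and with Nur77 6 rose and 2 fell (0.04); Cd28 (3.81 and 3.37) and Pdcd1 (2.59 and 2.69) were among the largest in both. The 6 with Nur77 include Nr4a1 (4.36), the gene of the construct itself. With the stimulus 11 were called, all higher (0.57), with Nr4a1 at 4.99, and with HDAC7 DP 7 were called, all lower (-0.44), with Nr4a1 (-2.41), Irf4 (-2.38) and Pdcd1 (-2.34) lowest. In DO11.10 over mhc -/- 13 rose and 1 fell (0.51), and after peptide 8, 10 and 9 were called, all higher (0.48, 0.49 and 0.50), with Nr4a1 at 3.06, 3.04 and 1.75. Nr4a1, Egr1 and Egr2 belong to this list and were direction checks in the stimulated and peptide groups. Their rise over the partner RNA there was therefore assumed and is not a result.

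Of 27 measured ligands and signalling partners of CD5 and CD6, 19 were called in DO11.10 over mhc -/-, all higher (median 0.35; 36.3% of all probes called), led by Cd2 (2.90), the inhibitory kinase gene Csk (2.84) and the phosphatase gene Ptpn6 (2.57). With HDAC7-VP16 4 rose, among them the receptor-proximal kinase gene Zap70 (0.68), the phosphatase gene Ubash3b (0.64) and Cd2 (0.47), where 2.72% of all probes were called. With MEF2D-VP16 4 rose, among them Ubash3b (1.17), Zap70 (0.90) and Cd2 (0.73), a share near the 12.6% of all probes. With Nur77 Cd247 rose (0.89) and Ptpn6 fell (-0.57), a share near the 6.91% of all probes. HDAC7 DP lowered Ubash3b (-1.58) and Zap70 (-1.18). The stimulus raised 5 and lowered 1, and the first was the phosphatase gene Ptpn22 (1.26). After peptide Cd72, a CD5 ligand reported on B cells, rose at 6 h (0.55) and 12 h (1.27), and 2, 1 and 1 of the list rose and 1, 1 and 2 fell at the 3 times.

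Of 14 measured partners of CD69 and genes of egress and homing, 8 rose and 4 fell in DO11.10 over mhc -/- (median 1.49; 36.3% of all probes called), with the chemokine receptor genes Cxcr4 (2.58) and Ccr7 (2.12) and the integrin gene Itgb7 (2.15) highest. S1pr1, the partner of CD69, lay at -0.89 there on average and was below 0 on 6 of 6 arrays. Ccr7, Itgb7, Klf2 and S1pr1 belong to this list and were also direction checks in DO11.10 over mhc -/-. The rise of Ccr7, Itgb7 and Klf2 there is therefore not independent of the direction taken. The stimulus raised 1 and lowered 3, with Cxcr4 at -1.79. HDAC7-VP16 lowered Klf2, a transcription factor gene of egress (-1.28), and Itgb7 (-0.66), and with MEF2D-VP16, where 4 rose and 1 fell, Klf2 was higher (2.47). The controls themselves differed for Klf2, which was 0.88 above untreated cells with empty virus A (limma adjusted p = 0.0485) and -0.71 from them with empty virus B (limma adjusted p = 0.00586). Nur77 raised 2 and lowered 2, and HDAC7 DP lowered 1, Stat5a (-0.66). At 3 h after peptide 1 rose and 3 fell, among them Itgb7 (-0.91) and Klf2 (-0.63), at 6 h 4 rose and 4 fell, and at 12 h 1 fell, Cxcr4 (-2.09).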

How the data were processed

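The authors deposited 1 log ratio per probe and 2-colour array, read here as log2. Scanner, background correction, normalization, log base and direction are unstated in the sources used. RNA was, per the labels, copied with aminoallyl-dUTP and coupled to Cy3 or Cy5. Dyes were read from the array titles, because the dye fields give Cy3 for either channel. Each array held 16463 probes and 0 missing values, with column medians from -0.021 to 0.023. One symbol was assigned to 14551 probes, several to 6 and none to 1906, and the Entrez ID of 14272 was found in the RefSeq table (GRCm38.p6). Signal over background is unknown without spot intensities, and the number of arrays limits precision.

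Each array was centred on its median. Limma 3.58.1 (R 4.3.3, lmFit and eBayes) was fitted to each probe over the compared groups, plus a column for dye orientation, and p-values were Benjamini-Hochberg adjusted over all 16463 probes; a probe was called at an adjusted p under 0.05. The fit was tested on simulated data. Pairs of receptors were compared within arrays by exact sign-flip permutation (Python 3.11.15, numpy 2.4.6). The members and lists were chosen with earlier results of these data known. Named genes were the receptors, the 5 genes most like each, direction checks and up to 3 called genes per list and comparison by size. Alternatives are listed in the closing section.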

Additional observations from a re-analysis of the deposited data

Results flagged for a closer look

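Of 30 combinations of receptor and group with 4 to 10 arrays, 2 held an array far from the others by Dixon's test, which chance gives in about 1 of 20. Cd69 at 3 h after peptide had its lowest array at 1.65 (replicate 6), while the other 5 lay between 2.54 and 2.80; the same array gave 1.35 for Cd5 and 1.06 for Cd6. Cd69 at 6 h had its highest array at 2.36 (replicate 2), while the other 5 lay between 1.197 and 1.545. The effect of peptide differed between 12 h and 3 h for Cd5 (-1.37), Cd6 (-1.13) and Cd69 (-1.29), each by a test of the difference itself in limma. All 3 h arrays have slide names with 13-, as do 2 of 6 arrays at 12 h, and the Cd5 and Cd6 differences were not called within that set.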

How the results depend on the processing

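Of 771 values under alternative settings, 714 kept their side of the threshold, 42 lost a call, 15 gained one and 0 changed sign with a call. Of the 714, 10 that were not called in either setting turned their sign. No paired analysis was possible because the labels give no replicate numbers, and those used here only name arrays in accession order; slide series and 13- slide names were fitted as blocks instead. The causes of the changes were not tested. Cd6 in empty virus A lost its call with equal spread (-0.36), no dye column (-0.36), 1 fit over all groups (-0.36), the unsettled arrays turned (-0.28), slide numbers averaged (-0.36) and in series 14 (-0.43) or 15 (-0.29) alone. In series 14 alone HDAC7-VP16 lost Cd5 (1.55) and Cd6 (2.60), and against stimulated cells Cd5 (1.51), Cd6 (2.97) and Cd69 (-0.49). Cd69 against stimulated cells was also lost with no dye column (-0.63), slide numbers averaged (-0.65), slide series as a block (-0.64), series 15 alone (-0.76) and slides 15 and 16 alone (-0.17, chosen after seeing the data, as were all settings by slide number pairs and without slides 14-11 and 14-12). Cd69 with the stimulus was lost with slide numbers averaged (0.76), in series 14 (0.69) or 15 (0.83) alone, against untreated cells (0.50) and with slides 15 and 16 alone (0.30), and Cd6 was gained with the arrays turned (-0.48), all empty virus arrays (-0.53) and against untreated cells (-0.76). With HDAC7 DP Cd5 (-0.27) and Cd69 (1.04) were gained against untreated cells, Cd69 against slides 15 and 16 alone (1.00), and Cd6 was lost in series 15 alone (-1.07). Cd5 with MEF2D-VP16 was gained with equal spread (0.46), all empty virus arrays (0.52) and against untreated cells (0.41). Cd69 with Nur77 was lost with no dye column (-0.81) and all empty virus arrays (-0.49). The MEF2D-VP16 to Nur77 difference of Cd5 was lost with no dye column (-0.75) and in 1 fit (-0.75). Between peptide times, Cd69 from 3 h to 6 h was gained in 1 fit (-0.99), Cd5 from 6 h to 12 h with 13- names as a block (-0.56), and from 3 h to 12 h Cd5 (-0.83) and Cd6 (-0.66) were lost within the 13- arrays. Cd6 with HDAC7-VP16 against the thymocyte ratio was lost with equal spread (0.41), no dye column (0.81) and the arrays turned (0.74).

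Leaving out 1 array was run for the thymocyte groups, MEF2D-VP16, Nur77 and empty virus B, not for the groups of 8 to 12 arrays. It gave ranges of -0.59 to -0.34 for Cd69 with MEF2D-VP16, 1.14 to 1.36 for Cd69 at 12 h, -0.92 to -0.61 for Cd5 between MEF2D-VP16 and Nur77, -1.20 to -0.91 for Cd69 from 3 h to 6 h and -0.68 to -0.45 for Cd5 from 6 h to 12 h, the results among these whose calls moved (Cd69 from 3 h to 6 h was called without 3 h replicate 6, Cd5 from 6 h to 12 h without 12 h replicate 1 or 2). Counts of called probes ranged widely over settings: 0 to 413 for empty virus A (325 as reported), 20 to 915 for empty virus B (942), 7 to 858 for HDAC7-VP16 (447), 745 to 3116 for the stimulus (2057), 27 to 3234 for HDAC7 DP (271), 1406 to 3010 for MEF2D-VP16 (2067), 365 to 2167 for Nur77 (1138), 100 to 735, 279 to 1906 and 46 to 4067 for the peptide times (446, 753 and 557), 1355 to 2296 for MEF2D-VP16 against Nur77 (2134), 99 to 2886 for HDAC7-VP16 against the stimulus (1452), and 1 to 118, 99 to 1513 and 362 to 1639 for 6 h against 3 h, 12 h against 6 h and 12 h against 3 h (2, 523 and 802).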
